A study of Homo sapiens with 6 samples.

Results

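The metallothionein family was followed in A549 cells, a human lung adenocarcinoma cell line, after knockdown of the chromatin factor BAP18. The 8 genes chosen by symbol were the metallothioneins MT1E, MT1F, MT1G, MT1M, MT1X and MT2A, the transcription factor MTF1 and the zinc exporter SLC30A1. Of these, 7 had a row among the 35474 genes of the count table, 5 had enough reads to be tested, and MT1M was not analysed here. RNA was collected 48 h after transfection from 3 cultures given siRNA against BAP18 (siBAP18) and from 3 cultures given a nontargeting siRNA (siCtrl), and poly(A) RNA was sequenced. The groups differed in the siRNA, and the sources used here do not state which BAP18 siRNA was used. The labels call the libraries of a group biological replicates.

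Metallothioneins are small cysteine-rich proteins that bind zinc and copper and also capture cadmium. Their genes lie side by side on chromosome 16 and are switched on by MTF1, a zinc-sensing transcription factor that binds short DNA motifs called metal response elements when zinc is plentiful. SLC30A1 moves zinc out of the cell across the plasma membrane and is itself activated by MTF1. MT2A is usually the most abundant member in epithelial cells, and glucocorticoids and oxidants are known to raise it as well.

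The metal response element core was searched on both strands as TGCACNC and TGCGCNC, where N is any base, and overlapping matches were all counted. RefSeq promoter sequences on GRCh38.p14, from 250 bases before to 50 bases after the start of a gene, were matched for MT2A, MT1X, MTF1 and SLC30A1. The promoter set held no entry for MT1E, MT1F, MT1G and MT1M. The metallothioneins that did not pass or gave almost no reads therefore could not be compared with MT2A and MT1X. The MT2A promoter (chr16:56608334-56608633) held 8 matches, a number reached by 0.02% of the 35116 promoters in the table. The MT1X promoter (chr16:56682220-56682519) held 4 matches, which 0.6% of promoters reached. SLC30A1 (chr1:211579112-211579411) held 2 matches, which 8.6% of promoters reached, and MTF1 held 0, whereas 29.55% of promoters held at least 1. The windows below, each 30 bases on the strand of the gene, carry these motifs in the genes that passed the test. The matched letters are in capitals. For MT2A, MT1X and SLC30A1 only some of the matches are shown, all of them in the 250 bases before the start.
MT2A, chr16:56608412-56608441, + strand: gcccGTGTGCAgagccgggTGCGCCCggcc
MT2A, chr16:56608434-56608463, + strand: gcccggcccagTGCGCGCggccgggtgttt
MT2A, chr16:56608519-56608548, + strand: ggcggggctttTGCACTCgtcccggctctt
MT1X, chr16:56682337-56682366, + strand: tcacgggttgcTGCACCCggcccaggatcg
MT1X, chr16:56682406-56682435, + strand: ggcggggcctcTGCGCCCggccctcttccc
SLC30A1, chr1:211579192-211579221, − strand: acgggggttccGAGTGCAaagcaaagtttt
The capitals in the SLC30A1 window and the left match of the first MT2A window are the motif read on the opposite strand. These matches are letters in a window and no measurement of binding. The RefSeq starts differ from the gene positions deposited with the counts. By those positions the MT2A promoter lies within the span of the gene, and the SLC30A1 promoter lies wholly upstream of its span.

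The libraries held between 42094524 and 56548620 counts. BAP18, listed as C17orf49, fell from 15.1 ± 1.09 to 2.41 ± 0.235 CPM (SD, n = 3 each), where CPM is the count scaled to the library total with the TMM factor of edgeR. All 50-base stretches of its longest coding transcript also occur in the readthrough gene RNASEK-C17orf49, so that reads of these rows cannot be separated. Epithelial keratins were abundant, with KRT8 at a mean of 1948 RPKM (counts scaled to gene length and library total) and KRT18 at 1859 RPKM in siCtrl cells. The 8 markers listed for A549 cells were not all epithelial genes, since they included the enzyme genes AKR1B10 and AKR1C1. They summed to between 5913 and 6192 RPKM in siCtrl libraries and between 4487 and 5051 in siBAP18 libraries. The part of this difference in the results was not tested. The markers went both ways. Mean RPKM was lower in siBAP18 than in siCtrl cells for KRT8 (1514 against 1948), KRT18 (1575 against 1859) and EPCAM (25.4 against 33.6). It was also lower for AKR1B10 (727.2 against 1409), AKR1C1 (70.8 against 129.4) and CDH1 (4.14 against 10.3). It was higher for KRT7 (783.9 against 581.1) and KRT19 (123.1 against 110.6). The summed level of the 4 endothelial markers was at most 0.165 RPKM in any library. The 4 fibroblast markers summed to at most 1.40 RPKM, nearly all of it COL1A1. Fewer cells expressing a gene and less RNA per cell cannot be told apart in these bulk samples. Among counts from 2 to 21, between 80.2% and 82.2% of values in each library were even, and how the reads of a pair were counted is not given in the sources used here.

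Of the 8 genes, MT2A, MT1X and SLC30A1 were higher in siBAP18 cells, MT1F and MTF1 did not pass the test, MT1E and MT1G were near 0, and MT1M was not analysed. The log2 fold change (log2FC, siBAP18 minus siCtrl) was tested by the quasi-likelihood method of edgeR, with p adjusted after Benjamini and Hochberg over the 20776 genes that passed the filter on low counts, and genes with an adjusted p under 0.05 were called. By that rule 24.5% of all genes tested were higher and 25.1% lower, so that a single gene passing it is common in these data. MT2A and MT1X also passed a log2FC of 1, which 4.72% of all genes did as higher genes, 3.74% as lower genes and 8.46% in either direction. The 3 siBAP18 libraries lay apart from the 3 siCtrl libraries in MT2A, MT1X, MT1F and SLC30A1 but not in MTF1, and 56.6% of all genes tested were apart in this way.

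MT2A, which encodes the main metallothionein of these cells, is located at chr16:56608199-56609497 (+ strand). Its level was 143.3, 124.8 and 140.7 CPM in siCtrl replicates 1, 2 and 3. In siBAP18 replicates 1, 2 and 3 it was 321.6, 241.6 and 285.9 CPM. The lowest siBAP18 library was 1.69 times the highest siCtrl library, and the siBAP18 libraries were spread more widely. The mean rose from 136.3 ± 10.0 to 283.0 ± 40.1 CPM (SD, n = 3 per group), with a log2FC of 1.05 (SE 0.0841, edgeR adjusted p = 1.35e-10). The 95% interval of the fold ran from 1.84 to 2.34. Without siCtrl replicate 2 the log2FC was 0.99, and without siBAP18 replicate 1 it was 0.95, so that the fold threshold was then missed while the adjusted p stayed under 0.05. By RPKM, MT2A ranked 470 among the 35474 genes in siCtrl cells and 245 in siBAP18 cells.

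MT1X, a further zinc-binding isoform, is located at chr16:56682424-56684196 (+ strand). It had 91, 55 and 91 counts in siCtrl replicates 1, 2 and 3, or 1.71, 1.18 and 1.95 CPM. The siBAP18 replicates had 235, 168 and 182 counts, or 4.32, 2.88 and 4.49 CPM. Replicate 2 was the lowest library of each group, and the groups did not overlap. The log2FC was 1.26 (SE 0.191, edgeR adjusted p = 5.06e-06), with a 95% interval from 0.865 to 1.65. MT1X shares 321 of its 1773 listed exon bases with the noncoding row RP11-343H19.2 on the same strand, which are 58.3% of that row's bases. RP11-343H19.2 had 86, 52 and 84 counts in siCtrl cells and 197, 149 and 154 in siBAP18 cells, with a log2FC of 1.12 (edgeR adjusted p = 2.34e-05). Reads in the shared exons cannot be assigned to either gene. Apart from this overlap, the MT1X difference with limma was 0.74 on log2(RPKM + 1) and 1.19 on log2(RPKM + 0.1).

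MT1F is located at chr16:56657694-56660698 (+ strand) and codes for another MT1 isoform. Its counts were 50, 44 and 43 in siCtrl replicates and 72, 73 and 59 in siBAP18 replicates. On the CPM scale the siCtrl libraries lay between 0.920 and 0.946 and the siBAP18 libraries between 1.25 and 1.46, without overlap. The log2FC of 0.51 (SE 0.222) had an unadjusted p of 0.0287 and an adjusted p of 0.0568 from edgeR. The 95% interval from 0.0580 to 0.971 was wide at this depth. The adjusted p fell under 0.05 in 4 of 17 alternative settings, at 0.0479 with at least 10 counts required in every library and between 0.0221 and 0.0385 with limma on RPKM.

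MT1E and MT1G gave almost no reads. MT1E, from 56625475 to 56627112 on the + strand of chromosome 16, had 0 counts in each siCtrl library and 3, 2 and 0 counts in siBAP18 replicates 1, 2 and 3. MT1G, from 56666731 to 56668065 on the − strand, had 2 counts in siCtrl replicate 3 and 0 counts in the other libraries. Both groups were at or under the 3 counts that a count of 0 allows, which is between 0.0514 and 0.0740 CPM depending on the library, so no fold is given. This floor covers counting error only and takes each count as independent. Most low counts were even, so it would be too low if both reads of a pair were counted. A difference in either gene was not detectable at this depth.

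Reads of these close relatives could be misassigned, and the treatment of reads that match several genes is not given in the sources used here. In the longest coding transcript of each gene in GENCODE 29, 10.6% of the 50-base stretches of MT1E, 14.3% of those of MT1G, 3.59% of those of MT1F and 4.88% of those of MT2A also occurred in a transcript of another gene. For stretches of 100 bases, none of these transcripts shared any with another gene. The genes that shared 50-base stretches with MT2A, MT1F and MT1G included MT1X, through a transcript other than its longest coding one. Whether reads of MT2A were counted in the MT1X row was not tested. The longest coding transcript of MT1X shared 55.8% of its 50-base and 50.8% of its 100-base stretches with AC026461.1, and with no other gene. AC026461.1 is the GENCODE name at the position of RP11-343H19.2.

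**Figure D1:**
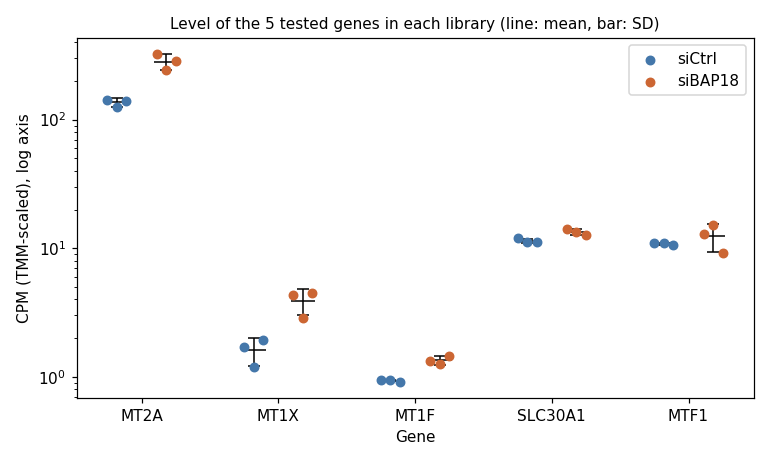
Level of the 5 tested genes in each library, in TMM-scaled CPM on a log axis, with the 3 libraries of each group as points, the mean as a line and the SD as a bar. MT2A, MT1X, MT1F and SLC30A1 are higher in all siBAP18 libraries than in any siCtrl library, and the siBAP18 libraries of MTF1 lie on both sides of the siCtrl libraries.

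The metallothionein pool was made almost entirely of MT2A. The 5 metallothionein genes with a row summed to 145.9, 126.9 and 143.6 CPM in siCtrl replicates 1, 2 and 3, and to 327.3, 245.8 and 291.8 CPM in siBAP18 replicates. The sum was 2.07-fold higher in siBAP18 cells (log2 difference 1.05, exact two-sided permutation p = 0.1, the smallest that 3 against 3 libraries allow). MT2A held 98.2% ± 0.175 of the summed counts in siCtrl cells and 98.2% ± 0.187 in siBAP18 cells (SD, n = 3 each).

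The minor isoforms kept small shares. MT1X held 1.15% ± 0.213 of the counts in siCtrl cells and 1.34% ± 0.185 in siBAP18 cells, and the libraries of the groups overlapped (exact permutation p = 0.5, adjusted p = 0.833 over the 5 genes). MT1F held 0.644%, 0.745% and 0.640% in siCtrl replicates and 0.404%, 0.509% and 0.499% in siBAP18 replicates. Its share was lower in all siBAP18 libraries than in any siCtrl library, by 0.206 percentage points on average (exact permutation p = 0.1, adjusted p = 0.5, where 0.1 is the smallest p possible).

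**Figure D2:**
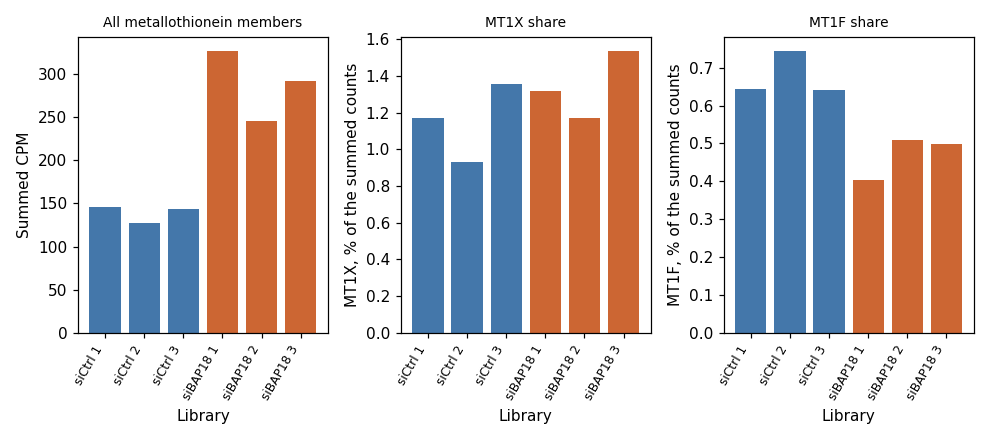
Bars give, for each of the 6 libraries, the summed CPM of the metallothionein genes (left) and the percent of their summed counts taken by MT1X (middle) and by MT1F (right). The sum is higher in the 3 siBAP18 libraries, the MT1X share overlaps between the groups, and the MT1F share is lower in the 3 siBAP18 libraries.

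**Figure D3:**
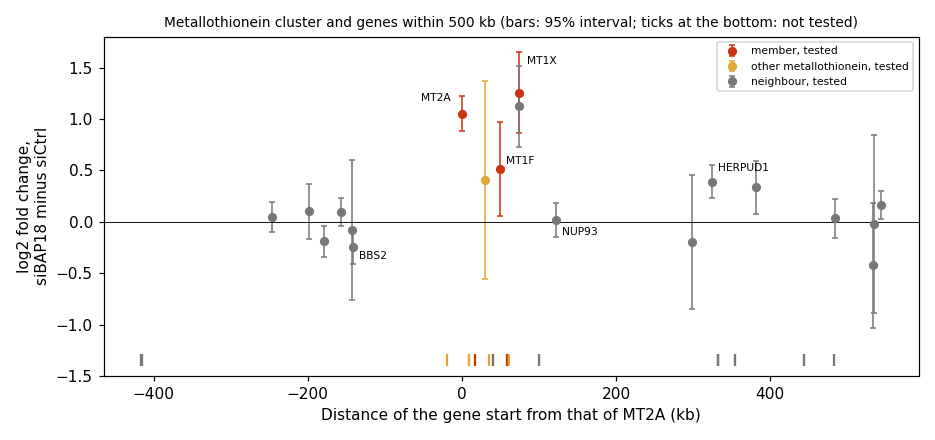
The log2FC (siBAP18 minus siCtrl) with its 95% interval against the distance of each gene's start from that of MT2A in kb, for the metallothionein genes and other rows within 500 kb, with ticks at the bottom for rows not tested. MT2A, MT1X and RP11-343H19.2, which shares exons with MT1X, lie above a log2FC of 1, and the other rows lie at or below 0.51. The window was chosen after seeing the data.

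SLC30A1, the zinc exporter of the plasma membrane, is located at chr1:211571568-211578742 (− strand). It measured 11.96, 11.25 and 11.23 CPM in siCtrl replicates 1, 2 and 3 and 14.02, 13.36 and 12.58 CPM in siBAP18 replicates. The groups did not overlap, but the lowest siBAP18 library was only 1.05 times the highest siCtrl library. The log2FC was 0.22 (SE 0.0854, edgeR adjusted p = 0.0383), a 1.16-fold rise with a 95% interval of the fold from 1.03 to 1.31. The call was lost in 5 of 6 fits with a library removed, namely each siCtrl library and siBAP18 replicates 1 and 2, where the adjusted p lay between 0.0516 and 0.161. It also missed the threshold with no filter (adjusted p = 0.102) and with limma on RPKM (adjusted p from 0.0804 to 0.142).

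MTF1, the transcription factor that senses zinc, is located at chr1:37809567-37859620 (− strand). The siCtrl replicates were close together at 10.98, 10.97 and 10.63 CPM. The siBAP18 replicates were spread on both sides of them, at 12.99, 15.03 and 9.13 CPM. The log2FC was 0.20 (SE 0.119, edgeR adjusted p = 0.168), and its 95% interval ran from −0.0439 to 0.445. Its value rested on single libraries. Without siBAP18 replicate 3, the library with the fewest counts, it was 0.37 (edgeR adjusted p = 5.07e-04), and without siBAP18 replicate 2 it was 0.04 (adjusted p = 0.799).

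**Figure D4:**
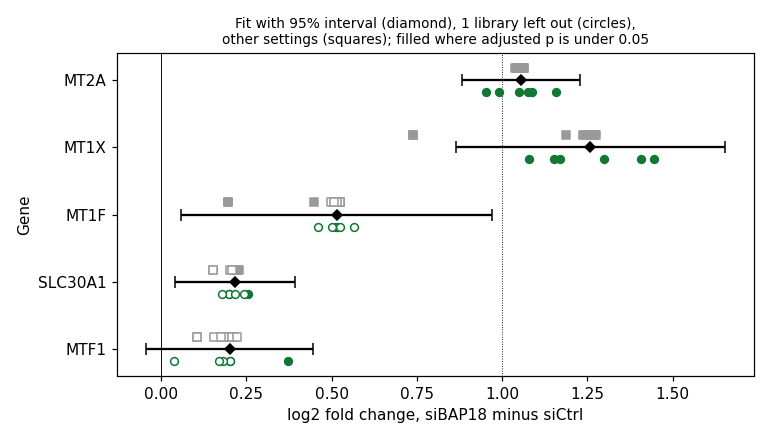
The log2FC (siBAP18 minus siCtrl) of each tested gene in the main fit, as a diamond with its 95% interval, with each library left out in turn, as circles, and in the other settings, as squares, filled where the adjusted p was under 0.05. All points of MT2A and MT1X are filled, 9 of the 17 alternatives of SLC30A1 and all but 4 of MT1F are open, and those of MTF1 are open except the fit without siBAP18 replicate 3.

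Compared per length of gene, MT2A stood far above the others in siCtrl cells at 104.6 ± 6.62 RPKM (SD, n = 3). SLC30A1 followed at 2.09 ± 0.0662, MTF1 at 1.35 ± 0.0332, MT1X at 0.907 ± 0.212 and MT1F at 0.494 ± 0.0114 RPKM (SD, n = 3 each), and no neighbours in this order overlapped. In siBAP18 cells, MT2A was at 217.8 ± 29.1 RPKM and SLC30A1 at 2.44 ± 0.197 (SD, n = 3 each). MT1X, at 2.19 ± 0.445 RPKM, came next and ran from 1.68 to 2.46, so that it overlapped both SLC30A1 and MTF1 (1.55 ± 0.425). MT1F was again the lowest tested gene, at 0.710 ± 0.0296 RPKM. The listed lengths of MT2A (1299 bases) and MT1X (1773 bases) equal their whole genomic span, introns included. Their longest coding transcripts have 786 and 538 bases, and that of MT1F has 690 against a listed 1889. For SLC30A1 (5474 and 5474 bases) and MTF1 (7972 against a listed 8024) the lengths are alike. The order of the genes below MT2A therefore depends on the length used.

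The log2 CPM of 14218 other genes (average log2 CPM not below 1) was compared with that of MT2A over the 6 libraries. The 5 most alike were CFAP57 (Pearson r = 0.99927), REEP5 (0.99852), RP11-111F5.4 (0.99844), ZNHIT2 (0.9984) and CFAP73 (0.99745). All rose in siBAP18 cells, by between 0.30 in REEP5 and 1.16 in ZNHIT2 on the log2 scale. The r was 0.967 for MT1X, 0.96 for MT1F, 0.91 for SLC30A1 and 0.256 for MTF1, and 887 of the other genes were more like MT2A than MT1X was. These values describe the same 6 libraries, whose 2 groups fix much of any correlation, and carry no test.

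Other genes were counted from lists of metal handling, of the heavy metal and oxidant response and of the glucocorticoid response, together 74 genes beside the 8, of which 55 were tested. Of these, 9 were higher and 23 lower at an adjusted p under 0.05 from edgeR, a share of calls to be read against the 49.6% of all genes that passed in either direction. The median log2FC of all genes tested was 0.00102.

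The other metallothionein genes were scarcely expressed, and neither of the 2 tested ones passed. MT1A, a coding gene of the same cluster, had 9, 16 and 7 counts in siCtrl cells and 12, 15 and 17 in siBAP18 cells (log2FC 0.41, edgeR unadjusted p = 0.391 and adjusted p = 0.497). The pseudogene MT1P3 had 3, 10 and 4 counts in siCtrl cells and 14, 12 and 9 in siBAP18 cells (log2FC 0.95, edgeR unadjusted p = 0.0917 and adjusted p = 0.152). Below the filter, MT2P1, a pseudogene on chromosome 4 that shares 15.7% of its 50-base stretches with other genes including MT2A, had 4, 4 and 0 counts against 14, 10 and 2. The pseudogene MT1DP had 6, 4 and 0 counts against 3, 2 and 2.

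Among the 6 other zinc exporters tested, 3 were lower and the rest did not pass, with a median log2FC of −0.45. The share of lower genes among all genes tested was 25.1%. SLC30A5 and SLC30A6, which work as a pair to load zinc into the secretory pathway, fell by 0.47 (edgeR adjusted p = 1.70e-05) and 0.50 (adjusted p = 0.00266). SLC30A9, a mitochondrial zinc transporter, fell by 0.43 (adjusted p = 3.55e-04). Of the exporters tested, SLC30A1 had the one positive fold change.

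Zinc importers of the SLC39 family were mixed, with 1 of 12 higher, 5 lower and a median of −0.10. Among all genes tested, 24.5% were higher and 25.1% lower. SLC39A10, a plasma membrane importer that MTF1 is known to repress in animal models, fell from 22.8 ± 0.669 to 10.8 ± 1.32 CPM (SD, n = 3 per group), with a log2FC of −1.08 (edgeR adjusted p = 1.71e-10). Its close relative SLC39A6 fell by 0.50 (adjusted p = 1.55e-06), and SLC39A8, which also carries manganese and cadmium, fell by 0.33 (adjusted p = 0.00171). The importer that rose was SLC39A1, by 0.23 (adjusted p = 0.00712), named here after its value was seen.

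Copper genes also went both ways, with 3 of 12 higher, 5 lower and a median of −0.11. These counts stand beside 24.5% higher and 25.1% lower among all genes tested. SLC31A1, the main copper importer, fell from 26.3 ± 1.37 to 8.83 ± 0.895 CPM (SD, n = 3 per group), with a log2FC of −1.57 (edgeR adjusted p = 1.48e-13). The copper-exporting ATPase gene ATP7A fell by 0.96 (adjusted p = 1.04e-08), and the metalloreductase gene STEAP2 fell by 0.75 (adjusted p = 3.56e-08). The genes that rose, named after their values were seen, were COX17 (log2FC 0.34), SCO2 (0.52) and COMMD1 (0.25).

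In the list of heavy metal and oxidant response genes, 1 of 11 was higher and 8 were lower, with a median of −0.36. HMOX1, the heme-degrading enzyme that metals and oxidants induce, rose from 50.4 ± 0.763 to 99.7 ± 11.0 CPM (SD, n = 3 per group), with a log2FC of 0.98 (edgeR adjusted p = 5.84e-11). SLC7A11, which imports cystine for glutathione, had a log2FC of −1.12 (adjusted p = 3.12e-12). GCLM, a subunit of the enzyme that starts glutathione synthesis, fell by 0.60 (adjusted p = 6.77e-07). OSGIN1 and DNAJB1, named after their values were seen, did not pass (log2FC 0.06 and 0.03). Over all genes tested, 25.1% were lower.

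Glucocorticoid response genes were examined because glucocorticoids induce MT2A, and 4 of 12 were higher and 2 lower, with a median of 0.16. In either direction 49.6% of all genes tested passed, with 24.5% higher and 25.1% lower. PER1, a clock gene that glucocorticoids and other stimuli induce, rose from 5.82 ± 0.802 to 61.7 ± 5.55 CPM (SD, n = 3 per group), with a log2FC of 3.41 (edgeR adjusted p = 1.56e-19). NFKBIA, the inhibitor of NF-κB, rose by 0.67 (adjusted p = 7.28e-08). FKBP5, a standard readout of the glucocorticoid receptor, fell by 0.63 (adjusted p = 1.17e-07). The other genes that passed, named after their values were seen, were CEBPD (log2FC 0.69, edgeR adjusted p = 3.0e-07) and ZFP36 (0.38, adjusted p = 0.00154), which were higher, and the glucocorticoid receptor gene NR3C1 (−0.22, adjusted p = 0.0133), which was lower. The remaining 6 genes did not pass.

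**Figure D5:**
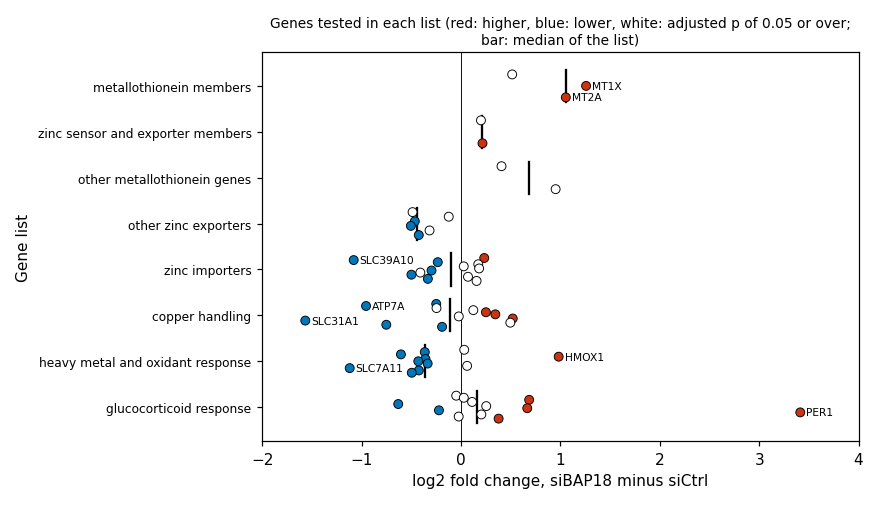
Each point is the log2FC (siBAP18 minus siCtrl) of a tested gene, by list, red where higher, blue where lower and white where the adjusted p was 0.05 or over, with the median of the list as a bar. The metallothionein points lie to the right of 0, as do the bars of the zinc sensor and exporter members and of the glucocorticoid list. The bars of the other zinc exporter, zinc importer, copper and oxidant response lists lie to its left.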

How the data were processed

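Poly(A) RNA of 6 A549 cultures was sequenced from strand-specific libraries, per the labels. The authors deposited raw counts per gene and the same values as RPKM. The RPKM values equal the counts divided by the listed length and by the total of the column. The aligner, counting program and strand setting are not given in the sources used here; the submitters' processing notes name hg38 and GRCm38, and the exon positions lie on human GRCh38.

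In R 4.3.3, genes kept by filterByExpr were TMM-normalised and the groups compared by the quasi-likelihood test of edgeR 4.0.16, adjusted by Benjamini-Hochberg over all genes tested. Standard errors are the log2 fold change over the square root of F. Simulated data with 20776 genes had 191 of 200 changed genes called, with 5 others. Only these 200 genes were changed in the simulation, whereas 49.6% of all genes tested passed in the data. It is therefore no measure of how well small changes are called by the adjusted p alone. Alternatives used limma 3.58.1, with a mean RPKM of at least 0.5, and DESeq2 1.42.0, and each library left out. Halved counts were added after seeing the data.

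The 8 genes and all lists were chosen with earlier results of these data known. Named genes are the 8, C17orf49, in each other list up to 3 with the smallest adjusted p under 0.05, other metallothioneins with at least 10 counts in all, and the 5 genes most like MT2A. Further genes, which the text says were named after their values were seen, and the neighbours of the cluster fall outside this rule. No replicate pair was a copy. Chi-square divided by its degrees of freedom was 4.17 to 4.87 within siCtrl and 11.0 to 25.8 within siBAP18. The edgeR p-values set the difference between the groups against the spread between these cultures. Python 3.11.15, pandas 2.3.3 and matplotlib 3.10.9 served for sequences and plots.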

Additional observations from a re-analysis of the deposited data

How the results depend on the processing

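Every alternative run kept the direction of all 5 tested genes, and the calls of MT2A (log2 fold change from 0.95 to 1.16) and MT1X (from 0.74 to 1.44) held in all 17. The number of genes past an adjusted p of 0.05 was 3, and 2 to 4 across alternatives. Past a log2 fold change of 1 as well, the number was 2, but 1 with limma on log2(RPKM + 1), with or without a filter, and from 1 to 2 with each library left out. The SLC30A1 call was lost in 9 of 17 alternatives, while MT1F gained a call in 4 and MTF1 in 1. The listed genes past the adjusted p numbered 32, and from 26 to 36 across alternatives. The drop in the MT1F share was 0.206 percentage points by counts and −0.142 as the difference by summed RPKM. Same-numbered replicates did not deviate together (r from −0.0166 to 0.0506), and the fit with a replicate block gave 3 of the 8 genes, 2 of them past the fold, and 34 listed genes. Low counts limit MT1E, MT1G and MT1F, and the smallest exact p of 0.1 limits the pool and its shares. The causes of these changes were not tested.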

Other observations

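The deposited exon positions place MT2A, MT1E, MT1F, MT1G and MT1X between 56608199 and 56684196 on chromosome 16, a span of 76 kb. Within 500 kb on either side, 24 rows other than metallothioneins were found and 15 were tested, a window chosen, and its genes named, after seeing the data. Their median log2 fold change was 0.03, with 4 higher, 2 lower and 9 not past an adjusted p of 0.05 from edgeR's quasi-likelihood test. By the same rule, 24.5% of all genes tested were higher and 25.1% lower, so calls among 15 rows are common. The higher rows were RP11-343H19.2, which shares exons with MT1X, HERPUD1 (log2 fold change 0.39), an endoplasmic reticulum stress gene, NLRC5 (0.33), a regulator of major histocompatibility complex class I genes, and FAM192A (0.17). NUDT21 (−0.19), a pre-mRNA cleavage factor subunit, and BBS2 (−0.25), a ciliary gene, were lower. NUP93, a nuclear pore gene beyond the MT1X end of the cluster, was at 0.02 (adjusted p = 0.876). 

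Mitochondrial transcripts took from 6.87% to 7.43% of counts in siCtrl libraries and from 5.28% to 6.14% in siBAP18 libraries, and the part of this difference in the values of MT2A was not tested.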
